A study of Mus musculus with 18 samples.

Results

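Potassium channel genes were examined in mouse cerebral cortex after sleep loss and in cultured cortical cells after excitatory stimulation. The set holds every gene whose platform symbol starts with Kcn and ends in a number, which takes in the pore-forming subunits of potassium channels and most of their auxiliary subunits. By this rule 71 of the 14807 singly named genes on the array were members, 1 probe set each. There were 27 voltage-gated subunits (Kcna, Kcnc, Kcnd, Kcnf, Kcng, Kcnh, Kcnq, Kcns and Kcnv), 14 auxiliary subunits (Kcnab, Kcne, Kcnip and Kcnmb), 6 ion-activated channels (Kcnma, Kcnn and Kcnu), 14 inward rectifiers (Kcnj) and 10 tandem pore channels (Kcnk). Kcnc1 was the member with 2 probe sets, and the one with the higher mean was used. The mean signal of 17 of the 71 members lay in the lowest 30% of all genes, and differences in these may be understated.

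Potassium channels let potassium ions leave or enter cells and so set the resting potential, end action potentials and shape the rate and pattern of firing. Voltage-gated channels open on depolarisation, calcium-activated channels after calcium entry, inward rectifiers carry current near rest or, in astrocytes, take up potassium released by neurons, and tandem pore channels give a background leak. Their link to sleep is known from animals: fruit flies with mutations in the voltage-gated channel gene Shaker sleep less, and mice without Kcna2 spend less time in non-rapid eye movement sleep.

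RNA was measured on 18 arrays in 6 groups of 3. The cortex donors were male C57BL/6J mice (9 in each group), with the RNA of 3 mice pooled for each array: mice recovered after 6 h of sleep deprivation, mice sampled at the end of the 6 h of sleep deprivation, and undisturbed home-cage controls. The source label gives 18 h of recovery and the treatment protocol 24 h, while the design places sampling on the next day at the time at which deprivation had started. Cultures were dissociated cortical cells of C57BL/6J mice, from newborns or from embryos of day 16 to day 18, in 9 dishes of 3 cultures: dishes 24 h after stimulation with an excitatory neurotransmitter cocktail, dishes 3 h after it, and dishes 3 h after sham stimulation with water. Every array received 100 ng of total RNA. The labels do not say which culture each dish came from, so p-values measure the spread between pools and between dishes alone.

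Values are log2 signals made by the authors with RMA, a method that subtracts background, scales arrays to each other and gives 1 value per probe set. A difference of 1 on this scale is a doubling, and a level of one probe set cannot be set against that of another. Array medians lay between 6.87 and 7.09, but the standard deviation across probe sets was 2.77 to 2.80 on culture arrays and 2.29 to 2.31 on cortex arrays. Differences were tested with limma (two-sided) over all 14807 genes, and a gene is said to have risen or fallen where its Benjamini-Hochberg adjusted p was under 0.05. As signs that the treatments took, Arc, an activity-induced gene, rose by 1.56 ± 0.05 (standard error, SE) in sleep-deprived cortex against control cortex (limma adjusted p = 2.3e-05) and by 1.41 ± 0.25 in culture 3 h after stimulation against sham (limma adjusted p = 0.041). Neuronal markers had mean levels of 12.27 to 12.54 on culture arrays and 11.79 to 11.87 on cortex arrays, over 9 genes.

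The windows around the transcription start are shown for the 3 members that passed the test within cortex or within culture, Kcnf1, Kcnj3 and Kcnh5, and for Kcnj2, which had the largest gap between dishes of different number. Each runs from 250 bases before to 50 bases after the start, in RefSeq on build GRCm38.p6, 5′ to 3′ on the gene's strand. The window of Kcnf1 is chr12:17176839-17177138 on the minus strand, that of Kcnj3 is chr2:55435720-55436019 on the plus strand, that of Kcnh5 is chr12:75177283-75177582 on the minus strand, and that of Kcnj2 is chr11:111065914-111066213 on the plus strand. The start shown for Kcnj3 lies inside the gene's RefSeq span, which begins at 55411798, so it is not the outermost start of that gene. Capitals mark an E-box, CACGTG, the letters bound by CLOCK and BMAL1 among other factors.
Kcnf1: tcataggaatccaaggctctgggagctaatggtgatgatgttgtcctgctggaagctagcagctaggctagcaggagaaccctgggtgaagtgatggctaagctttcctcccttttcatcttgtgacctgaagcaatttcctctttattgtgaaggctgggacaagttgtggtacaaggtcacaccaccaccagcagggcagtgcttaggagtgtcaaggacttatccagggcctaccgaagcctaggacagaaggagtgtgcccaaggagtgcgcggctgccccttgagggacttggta
Kcnj3: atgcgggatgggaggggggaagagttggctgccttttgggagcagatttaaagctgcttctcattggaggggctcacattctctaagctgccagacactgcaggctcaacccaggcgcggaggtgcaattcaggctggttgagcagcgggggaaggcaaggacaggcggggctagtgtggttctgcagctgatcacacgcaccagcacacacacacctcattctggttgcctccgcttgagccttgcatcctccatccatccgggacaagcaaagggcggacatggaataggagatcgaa
Kcnh5: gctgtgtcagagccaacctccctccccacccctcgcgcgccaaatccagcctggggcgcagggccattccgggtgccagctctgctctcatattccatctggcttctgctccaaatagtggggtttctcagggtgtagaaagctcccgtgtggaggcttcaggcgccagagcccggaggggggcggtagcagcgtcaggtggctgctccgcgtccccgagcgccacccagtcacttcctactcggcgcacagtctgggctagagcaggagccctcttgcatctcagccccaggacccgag
Kcnj2: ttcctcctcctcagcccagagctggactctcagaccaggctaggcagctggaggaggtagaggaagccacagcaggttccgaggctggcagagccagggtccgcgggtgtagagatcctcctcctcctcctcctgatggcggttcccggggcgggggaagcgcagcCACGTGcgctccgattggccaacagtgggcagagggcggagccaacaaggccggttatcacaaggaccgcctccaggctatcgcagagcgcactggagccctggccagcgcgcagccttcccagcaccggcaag

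Of the 71 members, 56 had such a window in RefSeq. The motifs searched were the cyclic AMP response element TGACGTCA, the AP-1 site TGANTCA and the E-box CACGTG, each of which reads the same on both strands and none of which contains another. TGACGTCA was in the windows of 0 of the 56 members, against 2.031% of 27025 genes with a window. TGANTCA was in those of 4 members (7.143%, against 8.973% of genes), namely Kcne3, Kcnip3, Kcnip4 and Kcnk2. CACGTG was in those of 5 members (8.929%, against 8.093% of genes), namely Kcnab1, Kcne4, Kcnj2, Kcnk5 and Kcnn4. In Kcnj2 it began 84 bases before the start. The windows of Kcnf1, Kcnj3 and Kcnh5 held none of the 3 motifs, which says only that these letters are not in these 300 bases.

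In sleep-deprived cortex against control cortex, 2 of the 71 members fell and 0 rose: Kcnj3, a subunit of the G protein-gated inward rectifiers that slow firing when transmitters bind their receptors, and Kcnh5, a voltage-gated subunit of the ether-a-go-go family. The level of each in sleep-deprived cortex was near 0.88 times that in control cortex. Of all genes, 1.63% were called in this comparison and 0.905% fell, so that 2 of 71, or 2.82%, is not far from the background. The members' median difference was -0.01, and that of all genes was 0.00. In bulk tissue, fewer cells of a type and less RNA per cell cannot be told apart.

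Kcnj3 had 11.68, 11.67 and 11.68 in the 3 sleep-deprived pools, against 11.89, 11.89 and 11.81 in the 3 control pools. The difference was -0.18 ± 0.03 (SE), with a limma adjusted p of 0.043. The sleep-deprived pools lay close together and below every control pool. Kcnh5 had 10.36, 10.35 and 10.31 in sleep-deprived pools, against 10.47, 10.55 and 10.58 in control pools. This difference was -0.19 ± 0.04 (SE, limma adjusted p = 0.049), again with no overlap. Both calls were marginal. That of Kcnj3 was kept, at an adjusted p of 0.029, when control pool 3 was left out, and that of Kcnh5, at 0.047, when control pool 1 was left out. Both were lost when any other of the 6 pools was left out, with adjusted p-values up to 0.162 for Kcnj3 and 0.17 for Kcnh5, and after quantile normalization of all arrays (0.070 and 0.075).

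Other voltage-gated subunits were mostly lower in sleep-deprived cortex without passing the test. Among the 27, 1 fell and 0 rose, 8 had a positive difference, and the median was -0.06. Of all 14807 genes, 7134 had a positive difference. Kcnh7, an ether-a-go-go-related channel of neurons, had 10.36, 10.38 and 10.32 in sleep-deprived pools, against 10.49, 10.52 and 10.48 in control pools, a difference of -0.14 ± 0.03 (SE, limma adjusted p = 0.067). Kcnv1, a silent subunit that conducts only when joined to other subunits, had 10.51, 10.48 and 10.53 in sleep-deprived pools, against 10.78, 10.76 and 10.59 in control pools (difference -0.21, limma adjusted p = 0.115). Control pool 3 was the low one, and without it the adjusted p of Kcnv1 was 0.016. Kcng3, another silent subunit, differed by -0.16 (adjusted p = 0.137). Kcnd3, which carries the fast transient current of the Kcnd family, lay the other way, at 9.52, 9.61 and 9.49 in sleep-deprived pools and 9.41, 9.43 and 9.32 in control pools (difference 0.15, adjusted p = 0.193). Kcna1 and Kcna2, low-threshold channels of axons, had overlapping groups.

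Among the 14 inward rectifiers, 1 fell and 0 rose, and the median was -0.07. Kcnj2, a strong rectifier that holds cells near the potassium potential, had 7.16, 7.48 and 7.43 in sleep-deprived pools, against 7.82, 7.75 and 7.76 in control pools. Its difference of -0.42 ± 0.09 (SE) was larger than that of Kcnj3, but its pools spread more and its limma adjusted p was 0.082. Its relative Kcnj4 had 8.94, 8.89 and 8.77 in sleep-deprived pools, against 9.06, 9.15 and 9.01 in control pools (difference -0.21, adjusted p = 0.144). Kcnj11, the pore of the ATP-sensitive channel that opens when ATP is low, had 7.39, 7.47 and 7.42 in sleep-deprived pools, against 7.85, 7.62 and 7.56 in control pools (difference -0.25, adjusted p = 0.180). In Kcnj2, Kcnj4 and Kcnj11 no sleep-deprived pool reached the lowest control pool. The lowest difference of all members belonged to Kcnj14, another strong rectifier, at -0.69 ± 0.29 (SE, adjusted p = 0.353): its sleep-deprived pools had 5.81, 4.64 and 5.31 and its control pools 6.03, 5.58 and 6.21, which overlap. The mean signal of Kcnj14 lay in the lowest 30% of all genes, and its difference was -0.97 to -0.38 when 1 pool was left out.

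Of the 6 ion-activated and 10 tandem pore channels, 0 passed the test. Kcnk1, a background leak channel, had 10.49, 10.54 and 10.48 in sleep-deprived pools, against 10.40, 10.34 and 10.14 in control pools (difference 0.21, limma adjusted p = 0.187). Kcnn2, a small-conductance calcium-activated channel that produces the pause after a spike, had 9.22, 9.31 and 9.33 in sleep-deprived pools, against 9.07, 9.05 and 9.19 in control pools (difference 0.18, adjusted p = 0.318). For both genes every sleep-deprived pool was above every control pool. Kcnma1, the large-conductance calcium-activated channel, lay lower, at 11.17, 11.15 and 11.07 in sleep-deprived pools and 11.22, 11.24 and 11.24 in control pools (difference -0.11, adjusted p = 0.194). Tandem pore channels had a positive difference in 8 of 10 cases, against 7134 of 14807 genes, with a median of 0.07. Of the 14 auxiliary subunits, 0 passed the test. Kcnip4, which binds Kcnd channels and speeds their delivery to the membrane, had 11.04, 10.99 and 11.01 in sleep-deprived pools, against 11.15, 11.11 and 11.40 in control pools (difference -0.21, adjusted p = 0.231).

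Over the whole set, 17 members had an unadjusted p under 0.05, of which 12 were lower and 5 higher in sleep-deprived cortex. Of the 14807 genes 1984 had such a p, 1150 lower and 834 higher. The groups did not overlap in 22 members, or 31%, against 18.8% of all genes. In 14 of these the sleep-deprived pools were below the control pools and in 8 above. Marker genes of other cells moved in the same comparison. Of 7 oligodendrocyte genes 2 fell and of 7 microglial genes 1 fell, with list medians of -0.13 and -0.14. The mean of the oligodendrocyte list was 9.52 to 9.56 in sleep-deprived pools and 9.65 to 9.73 in control pools, and the median over 9 neuronal genes was 0.00. The oligodendrocyte list did not move as a whole. Opalin and Aspa fell (differences -0.84 and -0.33), and Mobp and Mbp lay higher without passing the test (0.23 and 0.12). Its other genes lay lower without passing it. Of 6 endothelial and 6 pericyte genes 0 passed the test, and the median was -0.08 for each list. The mean of the endothelial list was 7.58 to 7.68 in sleep-deprived pools and 7.69 to 7.82 in control pools, and that of the pericyte list was 8.10 to 8.16 in sleep-deprived pools and 8.16 to 8.22 in control pools. Neither list overlapped, the pericyte list by a narrow margin. The largest endothelial difference was that of Slco1a4, -0.42, while Pecam1 and Flt1 lay at 0.02 and 0.04 and the other endothelial genes lay lower. The microglial list (7.49 to 7.65 in sleep-deprived pools, 7.60 to 7.72 in control pools) overlapped. The part of these cells in the potassium channel values was not tested.

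**Figure D1:**
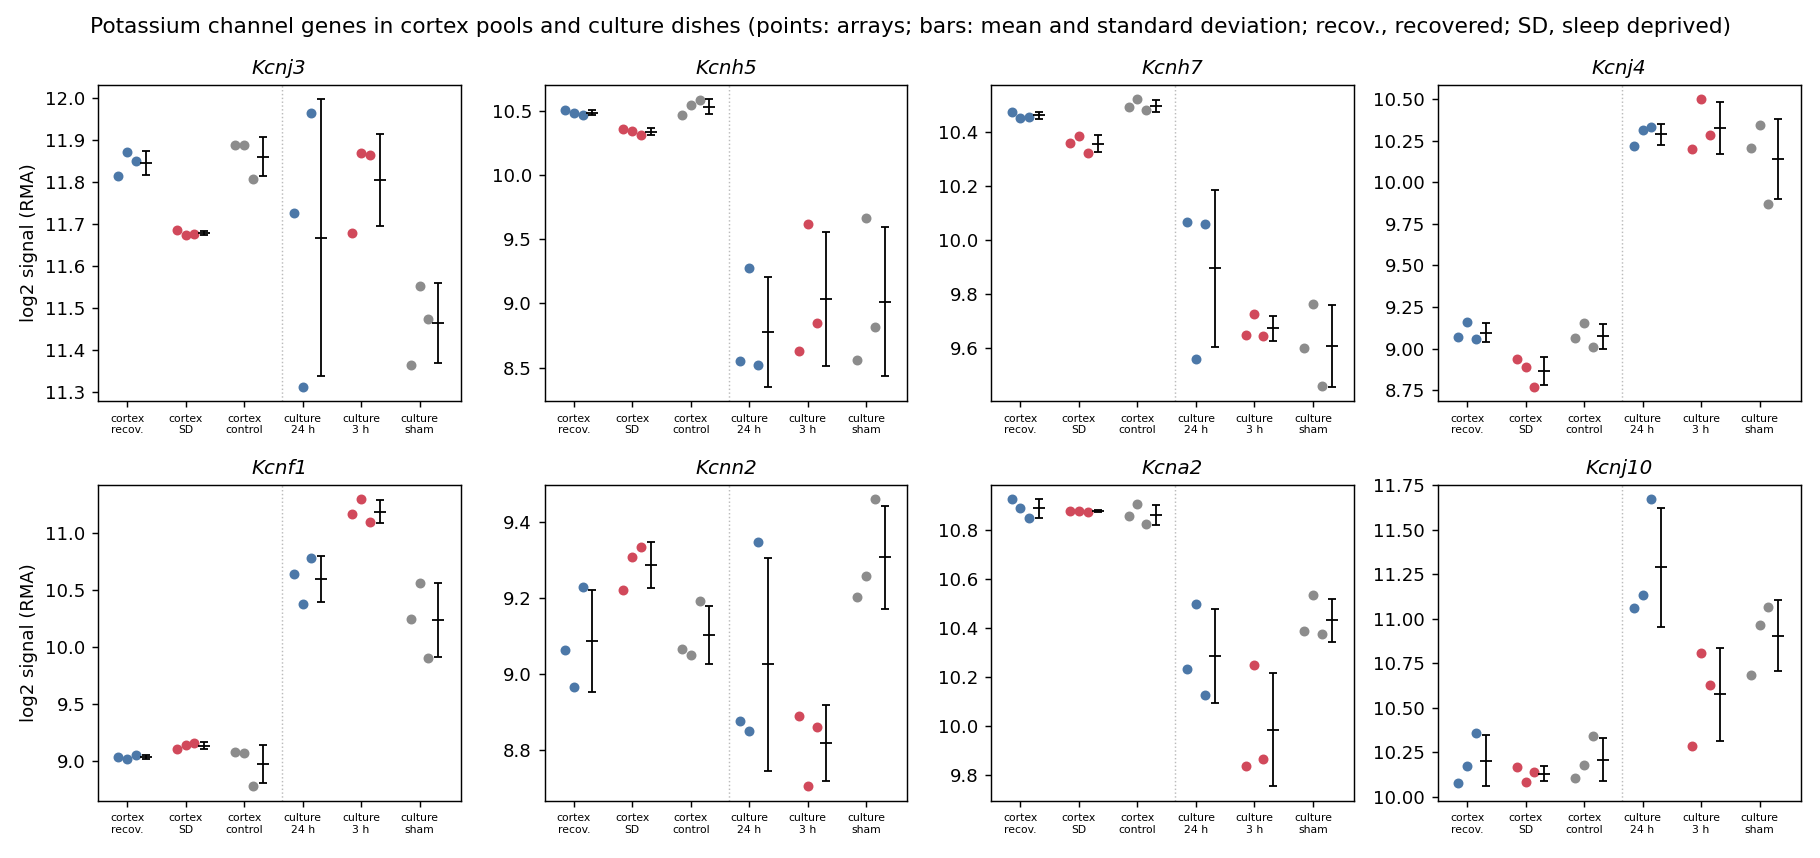
Log2 signal (RMA) of 8 potassium channel genes on each of the 18 arrays; each point is an array (a pool of 3 mice or a culture dish), each bar the mean and standard deviation of 3 arrays, and the dotted line parts cortex from culture. The sleep-deprived points of Kcnj3 lie between 11.67 and 11.68, below every control and recovered point, and the 3 h points of Kcnf1 lie between 11.09 and 11.29, above every sham point.

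In recovered cortex against sleep-deprived cortex, 1 of the 71 members rose, Kcnj3, and 0 fell (1.41%, against 2.26% of all genes called and 1.47% risen). Kcnj3 had 11.81, 11.87 and 11.85 in recovered pools, against 11.68, 11.67 and 11.68 in sleep-deprived pools. The difference was 0.17 ± 0.03 (SE), with a limma adjusted p of 0.049, and the groups did not overlap. This call was lost whichever of the 6 pools was left out (adjusted p of 0.098 to 0.143) and after quantile normalization (0.096). The comparison uses the same sleep-deprived pools as the one with control cortex, so opposite signs in the 2 comparisons are not separate evidence.

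The next genes by p did not pass the test. Kcnh5 had 10.51, 10.49 and 10.47 in recovered pools, against 10.36, 10.35 and 10.31 in sleep-deprived pools (difference 0.15, limma adjusted p = 0.087). Kcnj4 had 9.07, 9.16 and 9.06 in recovered pools, against 8.94, 8.89 and 8.77 in sleep-deprived pools (difference 0.23, adjusted p = 0.089). Kcnh7 differed by 0.11 (adjusted p = 0.122), with 10.47, 10.45 and 10.46 in recovered pools. In each of these 3 genes every recovered pool was above every sleep-deprived pool. Kcnk1 lay the other way, at 10.24, 10.30 and 10.31 in recovered pools, against 10.49, 10.54 and 10.48 in sleep-deprived pools (difference -0.22, adjusted p = 0.137). Kcnn2 had 9.06, 8.96 and 9.23 in recovered pools, against 9.22, 9.31 and 9.33 in sleep-deprived pools, with 1 recovered pool inside the sleep-deprived range (difference -0.20, adjusted p = 0.218). Groups did not overlap in 15 members, 11 of them above and 4 below, which is 21.1% against 22.3% of all genes. The inward rectifiers had a median of 0.12 with 11 of 14 differences above 0, against 8250 of 14807 genes. All members had a median of 0.03, against 0.01 for all genes. Of 7 oligodendrocyte genes 2 rose and of 7 microglial genes 1 rose in recovered cortex, with list medians of 0.13 and 0.14, while 0 of 6 endothelial, 0 of 6 pericyte and 0 of 9 neuronal genes passed the test (medians 0.09, 0.12 and 0.01). The mean of the oligodendrocyte list was 9.68 to 9.80 in recovered pools and 9.52 to 9.56 in sleep-deprived pools, and that of the endothelial list was 7.71 to 7.84 in recovered pools and 7.58 to 7.68 in sleep-deprived pools, neither with overlap. Within the oligodendrocyte list Opalin and Aspa rose (differences 0.81 and 0.36), Mobp and Mbp lay lower without passing the test (both -0.14), and the others lay higher. The largest endothelial difference was that of Slco1a4, 0.46. The part of these cells in the values of Kcnj3 and the other members was not tested.

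Recovered cortex against control cortex gave 0 members called with limma, and the percentage called among all genes was 0%, with 427 of all genes at an unadjusted p under 0.05. Among the members 4 had such a p, all with an adjusted p of 1. Kcna5, a voltage-gated subunit related to Shaker, had 5.77, 6.08 and 5.88 in recovered pools, against 6.23, 6.28 and 6.05 in control pools (difference -0.28), and the groups overlapped. Kcnmb1, an auxiliary subunit of the large-conductance channel that is known from smooth muscle, had 6.62, 6.57 and 6.79 in recovered pools, against 6.41, 6.56 and 6.29 in control pools (difference 0.24). The mean signal of Kcnmb1 lay in the lowest 30% of all genes. Kcnj2 had 7.42, 7.53 and 7.67 in recovered pools, against 7.82, 7.75 and 7.76 in control pools (difference -0.23), so that its recovered pools still lay below the control pools. The fourth was Kcnab2, an auxiliary subunit of Kcna channels, at 0.08. Groups did not overlap in 6 members, 2 above and 4 below, or 8.45% against 5.32% of all genes.

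In culture 3 h after stimulation against sham culture, 1 of the 71 members rose and 0 fell, which is 1.41% against 1.45% of all genes called and 0.898% risen. The gene was Kcnf1, a silent voltage-gated subunit that forms no channel alone and alters the gating of other subunits. It had 11.16, 11.29 and 11.09 in stimulated dishes, against 10.25, 10.56 and 9.90 in sham dishes. The difference was 0.95 ± 0.17 (SE), a 1.93-fold rise, with a limma adjusted p of 0.042. Every stimulated dish was above every sham dish, but the adjusted p was 0.053 with the dish number as a block and 0.053 to 0.150 when any 1 of the 6 dishes was left out.

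In the blocked fit, Kcna2 was called instead, or 1.41% of the members against 2.42% of all genes. It had 9.84, 10.25 and 9.87 in stimulated dishes, against 10.39, 10.53 and 10.37 in sham dishes, a difference of -0.45. Its limma adjusted p was 0.041 with the block and 0.184 without, and the groups did not overlap in either case. Kcnn2 had 8.89, 8.71 and 8.86 in stimulated dishes, against 9.20, 9.26 and 9.46 in sham dishes (difference -0.49 ± 0.14 SE, adjusted p = 0.160, and 0.067 with the block). All 3 stimulated dishes of Kcnn2 were below all sham dishes. Kcnd1, of the transient-current family, differed by -0.31 (adjusted p = 0.245), and Kcnn3, a close relative of Kcnn2, by 0.34 (adjusted p = 0.315). The anchor Kcnd2, also of the transient-current family, had 10.93, 11.25 and 11.07 in stimulated dishes and 10.86, 11.20 and 11.11 in sham dishes, which overlap.

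By family, the 27 voltage-gated subunits had 6 positive differences and a median of -0.09, the 14 inward rectifiers 7 and 0.02, and the 14 auxiliary subunits 6 and -0.03. Of all 14807 genes, 5824 had a positive difference. Of the inward rectifiers, auxiliary subunits, 6 ion-activated and 10 tandem pore channels, 0 passed the test. Kcnk5, an acid-sensitive tandem pore channel with a low signal, had 5.02, 5.12 and 5.32 in stimulated dishes, against 4.96, 4.83 and 4.84 in sham dishes (difference 0.27, limma adjusted p = 0.391). The median of all members was -0.05, against -0.03 for all genes. Groups did not overlap in 9 members, 4 above and 5 below, or 12.7% against 21.4% of all genes. Of 9 neuronal genes 1 rose, Nefl (difference 1.08, limma adjusted p = 0.014), with a list median of 0.05. The neuronal list mean was 12.47 to 12.54 in stimulated dishes and 12.27 to 12.35 in sham dishes, without overlap. Of 6 pericyte genes 1 fell, Pdgfrb (-0.89, adjusted p = 0.011), with a median of 0.01. Of 7 astrocyte genes 0 were called (median -0.19). The part of these cells was not tested.

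**Figure D2:**
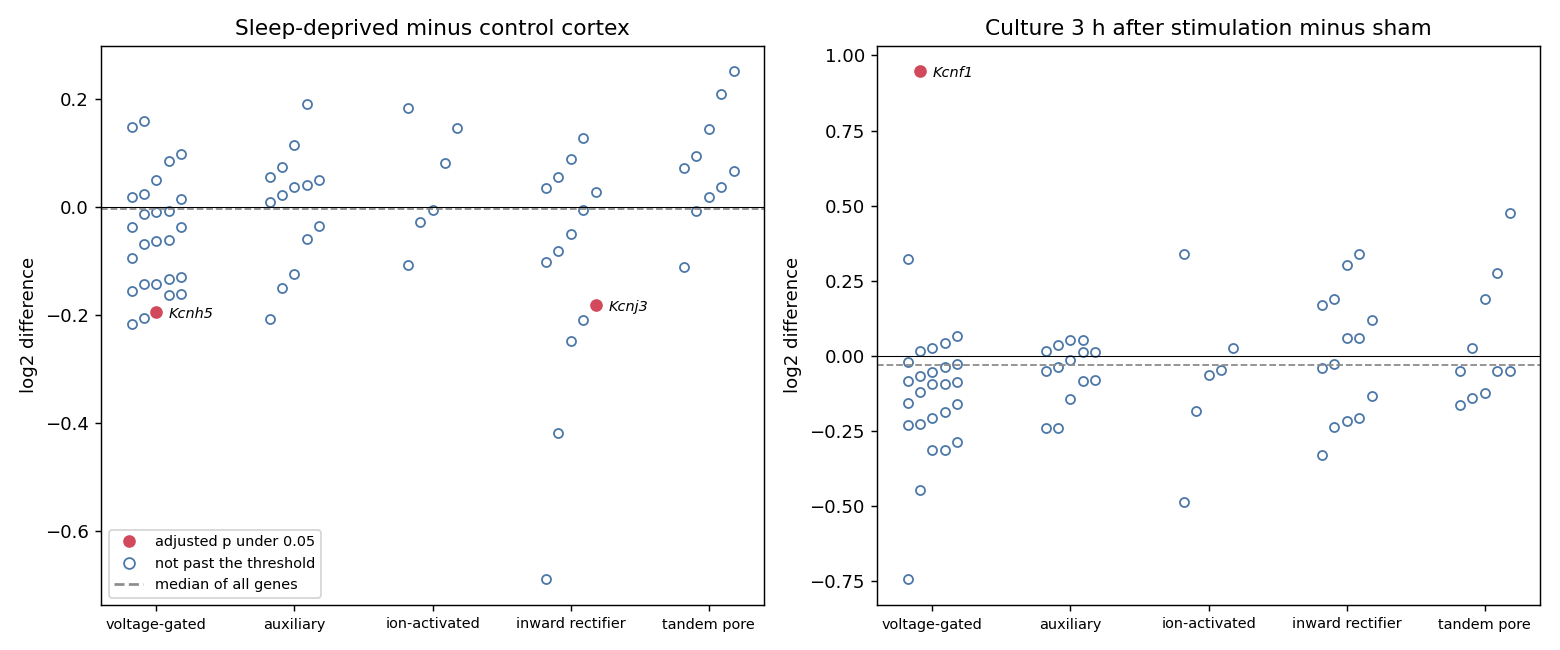
Log2 difference of each of the 71 potassium channel genes by family, in sleep-deprived minus control cortex (left) and culture 3 h after stimulation minus sham (right); each point is a gene, filled where its limma adjusted p was under 0.05, and the dashed line is the median of all 14807 genes. Most points lie near that line, with Kcnh5 and Kcnj3 called below it on the left and Kcnf1 called at 0.95 on the right; the vertical scales differ.

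Culture 24 h after stimulation against 3 h after it gave 0 members called with limma, against 0.331% of all genes (0.081% higher and 0.25% lower). At an unadjusted p under 0.05 there were 10 of the 71 members, 4 higher and 6 lower, and 1824 of the 14807 genes. Kcnf1 had 10.63, 10.37 and 10.78 at 24 h, against 11.16, 11.29 and 11.09 at 3 h, all lower (difference -0.59 ± 0.17 SE, limma adjusted p = 0.216). Kcnip1, Kcnip2 and Kcnip4, auxiliary subunits that bind Kcnd channels, were among the lower genes. The other measured Kcnip gene, Kcnip3, had overlapping groups (difference -0.12, adjusted p = 0.841). Kcnip1 had 10.06, 9.97 and 10.00 at 24 h, against 10.40, 10.38 and 10.57 at 3 h (difference -0.44, adjusted p = 0.174). Kcnip4 differed by -0.70 (adjusted p = 0.317) and Kcnip2 by -0.62 (adjusted p = 0.367), both without overlap. In both, dish 3 was the lowest of the 24 h dishes, at 9.68 for Kcnip4 and 8.52 for Kcnip2, and without it the differences were -0.38 and -0.30. Of 9 neuronal genes 0 were called in this comparison, with a median of -0.11. The mean of the neuronal list was 12.35 to 12.40 at 24 h and 12.47 to 12.54 at 3 h, without overlap. Rbfox3 and Nefl lay lowest (-0.39 and -0.34), while Map2 and Gad2 lay higher (0.04 and 0.03). The part of the neurons in the values above was not tested.

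Kcnj10, the inward rectifier through which astrocytes take up potassium, had 11.06, 11.13 and 11.67 at 24 h, against 10.29, 10.81 and 10.63 at 3 h (difference 0.71 ± 0.20 SE, limma adjusted p = 0.196, and 0.071 with the dish number as a block). All 24 h dishes were above all 3 h dishes, and the sham dishes, at 10.68, 10.97 and 11.07, overlapped both. Of 7 measured astrocyte markers 0 passed the test in this comparison, and their median difference was 0.32. The mean of that list was 10.09 to 11.04 at 24 h, 9.85 to 10.21 at 3 h and 9.94 to 10.50 in sham dishes, which overlap. Gfap had the largest difference, 2.12 ± 1.14 (SE), and Aqp4, Aldh1l1, Sox9 and Gja1 lay 0.24 to 0.63 higher. Aldoc and S100b lay at 0.00 and -0.18, so the list did not move as a whole. Its median had the sign of the Kcnj10 difference, and the part of astrocytes in the value of Kcnj10 was not tested. Kcnh2, a channel of the ether-a-go-go-related family, was 0.36 higher (adjusted p = 0.256), and Kcnj6, a G protein-gated rectifier, had a difference of -0.27 (adjusted p = 0.290). Groups did not overlap in 10 members, 4 above and 6 below, or 14.1% against 15.3% of all genes.

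Culture 24 h after stimulation against sham gave 0 members called, against 0% of all genes with limma. At an unadjusted p under 0.05 there were 8 members, 2 higher and 6 lower, and 877 of all genes. Kcnip1 had 10.06, 9.97 and 10.00 at 24 h, against 10.38, 10.43 and 10.78 in sham dishes, all lower (difference -0.52 ± 0.11 SE, limma adjusted p = 0.663). Kcnh3, a neuronal channel of the ether-a-go-go-like family, had 10.16, 10.15 and 9.67 at 24 h, against 10.70, 10.41 and 10.49 in sham dishes, without overlap (difference -0.54, adjusted p = 0.719). Kcnip4 and Kcnip2 differed by -0.67 and -0.66 (adjusted p = 0.808 for both), and by -0.34 each without dish 3 of the 24 h dishes. Kcnip3 had overlapping groups (difference -0.27, adjusted p = 0.913). Kcnk2, a mechanosensitive leak channel, differed by -0.32 (adjusted p = 0.808). Kcnf1 had overlapping groups (difference 0.36, adjusted p = 0.856). Groups did not overlap in 7 members, 2 above and 5 below, or 9.86% against 8.39% of all genes. Of 7 astrocyte genes and 4 genes of dividing cells 0 were called, with medians of 0.29 and 0.26. The astrocyte list overlapped, at 10.09 to 11.04 at 24 h and 9.94 to 10.50 in sham dishes, and the mean of the list for dividing cells was 7.83 to 8.31 at 24 h and 7.57 to 7.85 in sham dishes. Their part in the values above was not tested.

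Whether the response differed between systems was tested as the culture difference (3 h stimulated minus sham) minus the cortex difference (sleep deprived minus control) in 1 model of all 18 arrays. With limma 0 of 71 members were called, against 2.07% of all genes (1.12% higher and 0.952% lower). An unadjusted p under 0.05 was found for 8 members and for 1793 of the 14807 genes. Both smallest adjusted p-values lay at the threshold. Kcnn2 differed by -0.67 ± 0.16 (SE, adjusted p = 0.0503), being lower after stimulation (-0.49) and higher after sleep deprivation (0.18). Kcnf1 differed by 0.79 ± 0.19 (SE, adjusted p = 0.0503). Its pools in cortex had 9.11, 9.15 and 9.16 after sleep deprivation, against 9.08, 9.07 and 8.78 in control mice.

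With the replicate number as a block, 3 members were called: Kcnn2 (limma adjusted p = 0.014) and Kcna2 (difference -0.46, adjusted p = 0.013) with a lower response in culture, and Kcnj2 (difference 0.72, adjusted p = 0.046) with a higher one. In that fit 4.23% of the members were called, against 3.47% of all genes. Kcnf1 had an adjusted p of 0.071 there. After quantile normalization the adjusted p was 0.024 for Kcnn2 and 0.043 for Kcnf1, so these calls depended on the processing. The response of Kcnj3 was also of opposite sign in the 2 systems, 0.34 in culture and -0.18 in cortex, but the difference of 0.52 did not pass the test (adjusted p = 0.139). In cortex the replicate numbers do not pair the pools.

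Sham culture against control cortex, the comparison of the untreated groups, gave the largest differences. As deposited, 26 members were higher and 18 lower in sham culture, or 62% against 76.2% of all genes called (61% higher and 15.3% lower). All sham dishes lay above all control pools in 32 members and below them in 22, and groups did not overlap in 82.3% of all genes. After quantile normalization, 22 were higher and 30 lower, or 73.2% against 70.6% of all genes called (7343 of the 14807 higher and 3113 lower). The median over all genes was 0.50 as deposited and 0.23 after quantile normalization, and that of the members 0.17 and -0.16. Calls and signs are given against 0, not against these shifts, unless the median of all genes is named. As deposited, 23 members lay above the all-genes median and 48 below it. Of the 44 members called as deposited, 28 kept call and sign after quantile normalization, 11 higher and 17 lower, and in 10 the sign turned.

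Of the 11 members higher under both scalings, the largest difference was that of Kcnk10, a leak channel of the mechanosensitive and lipid-sensitive kind. It had 9.90, 9.89 and 9.24 in sham dishes, against 6.79, 6.83 and 6.91 in control pools. The difference was 2.83 ± 0.15 (SE, limma adjusted p = 1.6e-10), a 7.13-fold level, and 2.40 after quantile normalization. Kcnip1 had 10.38, 10.43 and 10.78 in sham dishes, against 8.41, 8.56 and 8.61 in control pools (difference 2.00, and 1.16 after quantile normalization). Kcnd3, a pore-forming partner of the Kcnip proteins, had 10.81, 10.97 and 11.39 in sham dishes, against 9.41, 9.43 and 9.32 in control pools (difference 1.67, and 0.76 after quantile normalization). For all 3 genes the sham dishes were far above the control pools. The 4 ion-activated channels called as deposited, Kcnn1, Kcnn3, Kcnn4 and Kcnu1, were higher under both scalings, as were Kcna3, Kcnf1, Kcnj15 and Kcnmb2. All but Kcnu1 also lay above the median of all genes under both. As deposited, Kcnmb2 and Kcnj15 lay only 0.002 and 0.06 above it, too little to give a direction. Kcnu1, a channel known from sperm, had a low signal of 4.46 to 4.54 in sham dishes, against 4.17 to 4.19 in control pools. Kcnn4 and Kcnj15 also had mean signals in the lowest 30% of all genes.

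Of the 17 members lower under both scalings, 7 were voltage-gated and 6 were inward rectifiers, families that hold 27 and 14 of the 71 members. Kcnab3, an auxiliary subunit of Kcna channels, had 7.23, 7.26 and 7.23 in sham dishes, against 9.00, 9.05 and 8.99 in control pools (difference -1.78 ± 0.12 SE, limma adjusted p = 2.6e-09, and -2.29 after quantile normalization). Kcnh5 had 8.56, 9.67 and 8.82 in sham dishes, against 10.47, 10.55 and 10.58 in control pools (difference -1.52, and -2.34 after quantile normalization). Its sham dishes spread over 1 unit and stayed below the control pools. The G protein-gated subunits Kcnj3, Kcnj6 and Kcnj9 were all lower, with differences of -0.40, -0.996 and -0.60 as deposited and -1.19, -1.48 and -1.26 after quantile normalization. Kcnj8 and Kcnj11, the pores of ATP-sensitive channels, had differences of -0.83 and -0.47 as deposited and both were -0.78 after quantile normalization. Kcna2 was lower under both, with differences of -0.43 and -1.33. Kcnj2 was lower as well (difference -1.06 as deposited), but without sham dish 1 or 2 its adjusted p was 0.071 or 0.058. The calls of Kcnk4 and Kcnc1 as deposited were less stable. They were kept in 1 and 2 of the 6 settings with 1 array left out, with limma adjusted p-values up to 0.149 and 0.187.

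The direction against 0 was not settled by these data where the scalings disagreed. Kcnj10, called higher as deposited (0.70), had -0.20 after quantile normalization, and its partner Kcnj16 had 0.48 as deposited and -0.20 after it. Kcna1 was called higher as deposited (0.55) and lower after quantile normalization (-0.35), and Kcne4 the other way round. Against the median of all genes, Kcnj16 and Kcne4 lay below it under both scalings. The margin was narrow for Kcnj16 as deposited and for Kcne4 after quantile normalization. The mean signal of Kcne4 lay in the lowest 30% of all genes. As deposited, the call of Kcnj16 was also lost without sham dish 3 (difference 0.23, limma adjusted p = 0.287), control pool 1 (0.133) or control pool 2 (0.104), and that of Kcne4 without sham dish 2 (0.081) or control pool 3 (0.062). Markers of other cells differed in this comparison too, as deposited. Of 7 oligodendrocyte genes 7 were lower in sham culture (median -3.95), of 7 microglial genes 7 (median -2.18), of 6 endothelial genes 6 (median -2.90) and of 6 pericyte genes 5 (median -2.00). The remaining pericyte gene, 1 of 6, was higher. Of 4 genes of dividing cells 4 were higher (median 3.63), and of 5 oligodendrocyte precursor genes 5 (median 2.42). Of 7 astrocyte genes 4 were higher and 1 lower (median 1.23). Among all genes 61% were higher and 15.3% lower, with a median of 0.50. Of 9 neuronal genes 5 were higher (median 0.44), which is not far from that background. The part of these cells in the potassium channel values was not tested, and age of the tissue, RNA kit and system cannot be told apart.

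**Figure D3:**
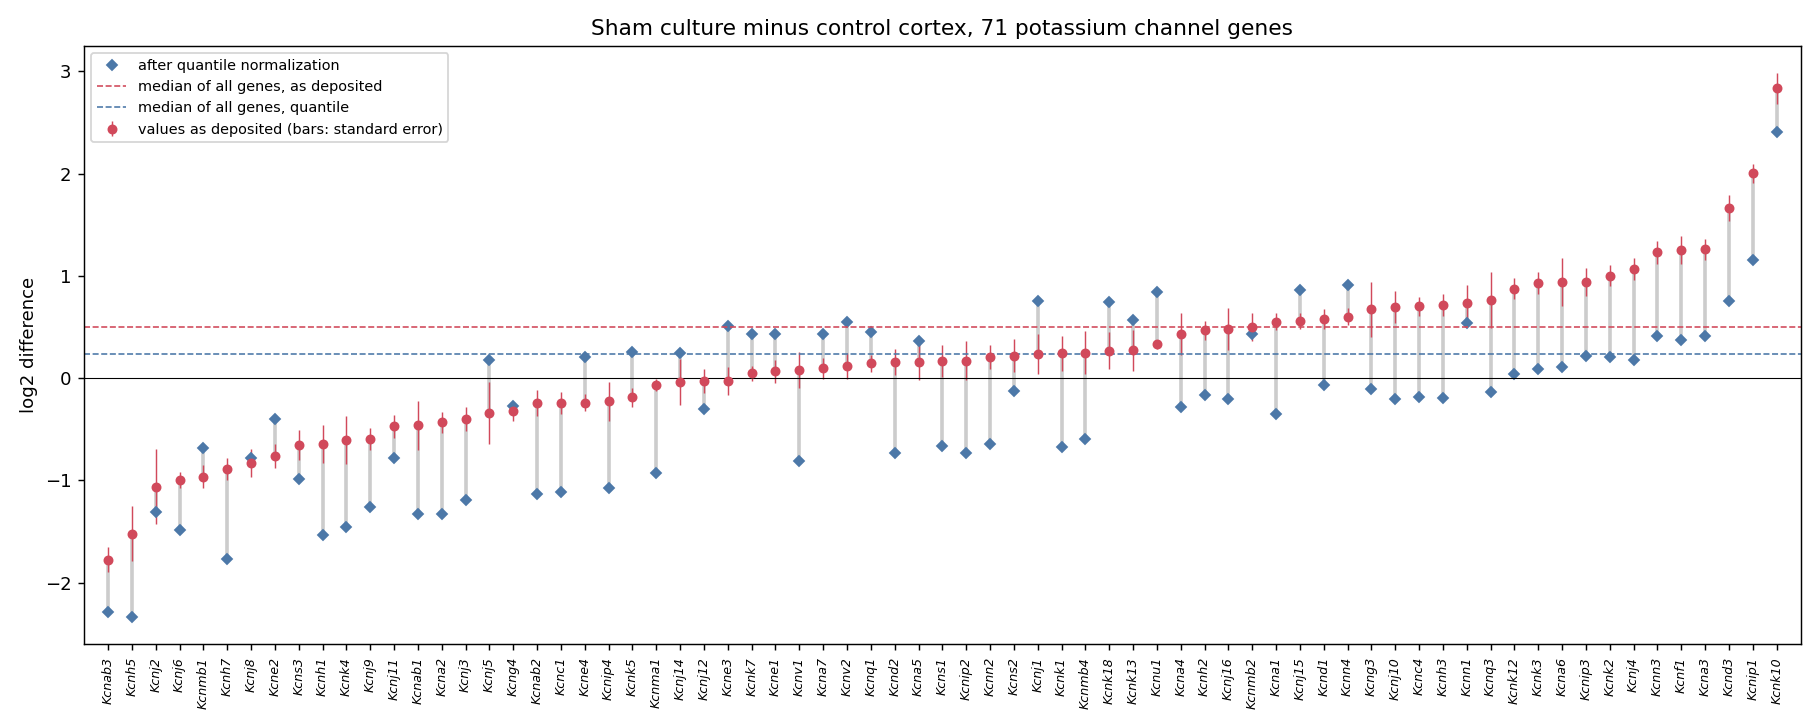
Log2 difference of the 71 potassium channel genes in sham culture minus control cortex, ordered by the values as deposited (circles with standard error bars), with the same difference after quantile normalization of the 18 arrays (diamonds). Dashed lines give the median of all 14807 genes, 0.50 as deposited and 0.23 after quantile normalization; Kcnk10 and Kcnip1 stand highest and Kcnab3 and Kcnh5 lowest under both, while many genes in between cross 0.

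Potassium channel genes also differed between dishes of different number within the same treatments. In 21 of the 71 members, or 29.6%, the 3 dishes of 1 number all lay above or all below the other 6 dishes, against 16.4% of all genes. In cortex pools the same held for 3 members, or 4.23%, against 4.73% of all genes. Dish number 2 was above the others in 10 members and below in 1, number 3 above in 2 and below in 9, and number 1 below in 3, with some genes counted for 2 numbers. The labels do not say whether a number stands for a culture.

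The largest gap was that of Kcnj2. Its number 3 dishes had 7.40 at 24 h, 7.80 at 3 h and 7.37 after sham, against 5.87 to 6.68 in the other 6 dishes, a mean difference of 1.15. This exceeded its difference between 3 h stimulated and sham dishes, which was 0.30. In Kcnh5 the number 2 dishes had 9.28 at 24 h, 9.62 at 3 h and 9.67 after sham, against 8.52 to 8.85 in the others. In Kcnab1, an auxiliary subunit of Kcna channels, the number 2 dishes were the low ones, at 8.83, 8.89 and 9.22, against 9.51 to 9.90.

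Number 3 dishes were low in Kcnq3, a subunit of the M-current that damps repeated firing, at 9.44 at 24 h, 10.70 at 3 h and 10.69 after sham, against 10.79 to 11.20 in the others. They were also low in Kcna6, a voltage-gated subunit related to Shaker, at 8.86 to 9.31 against 9.60 to 9.91, and in Kcnmb4, the neuronal auxiliary subunit of the large-conductance channel, at 8.72 to 8.94 against 9.29 to 9.69. Marker lists differed between the numbers as well. The mean of the astrocyte list was 10.21 to 11.04 in number 3 dishes, 9.88 to 10.09 in number 2 and 9.85 to 10.33 in number 1, and that of the oligodendrocyte list was 6.24 to 6.30 in number 2 dishes and 5.81 to 6.04 in the others. Their part in these gaps was not tested.

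**Figure D4:**
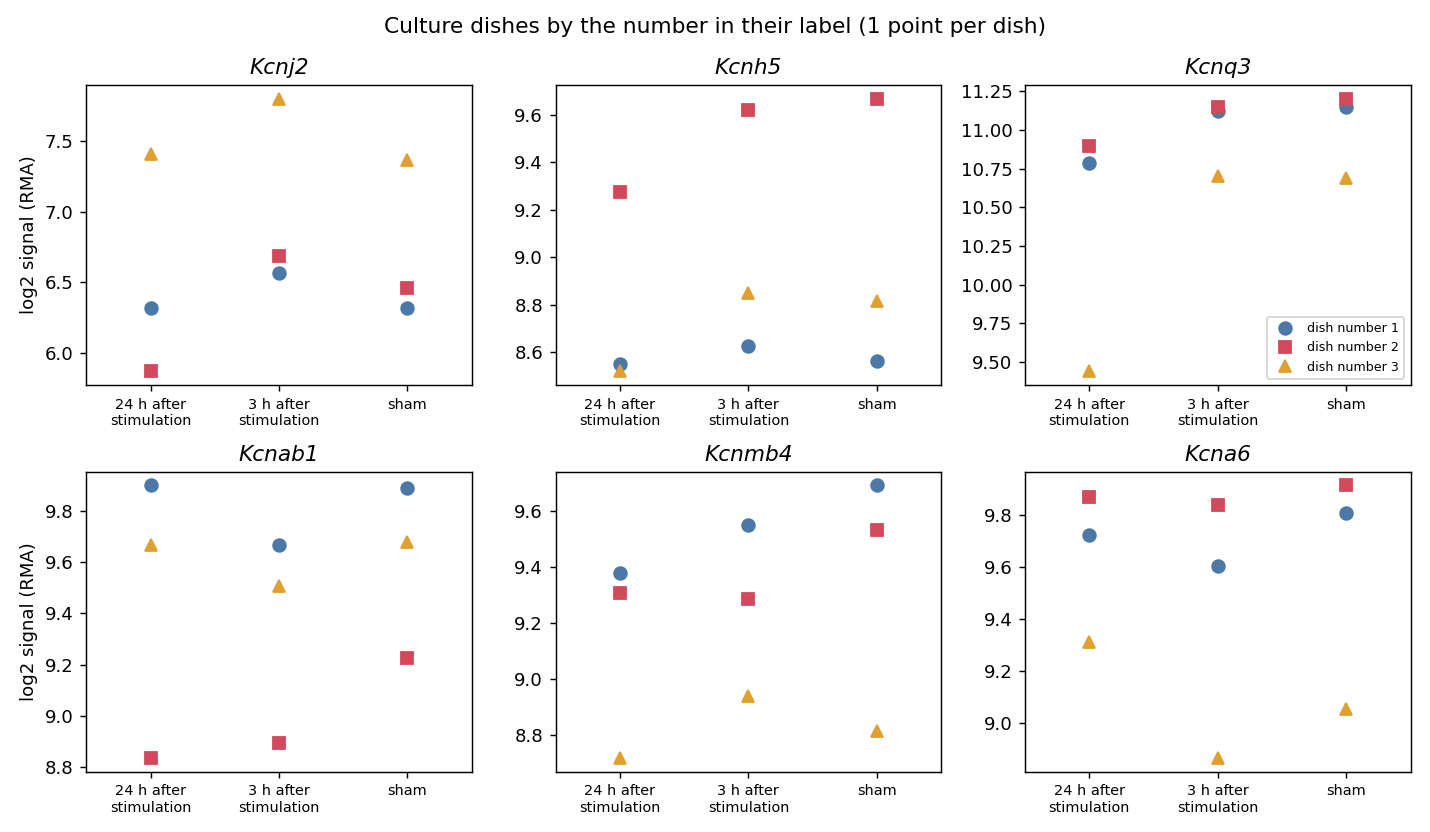
Log2 signal (RMA) of 6 potassium channel genes in the 9 culture dishes, by treatment and by the number in the dish's label (circle, square and triangle for numbers 1, 2 and 3). The triangles of Kcnj2 lie at 7.37 to 7.80, above the other dishes at 5.87 to 6.68, and the gap between numbers recurs in each treatment.

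Genes whose products bind potassium channels or move potassium by other means were described from a separate list of 26, of which 18 had a singly named probe set. In each of the 6 comparisons within cortex and within culture, and in the test of the response difference, 0 of the 18 were called with limma. In sleep-deprived against control cortex the smallest p-values were those of Adam23 and Adam22, membrane proteins of the complex that holds Kcna channels in place (differences -0.25 and -0.11, adjusted p = 0.162 and 0.201), and Dpp10, an auxiliary subunit of Kcnd channels (difference -0.27, adjusted p = 0.210). In culture 3 h after stimulation against sham, Kcnrg, a regulator related to the assembly domain of voltage-gated channels, had a difference of -0.38 (adjusted p = 0.109). In sham culture against control cortex 12 of the 18 were higher and 2 lower as deposited. Among all genes 61% were higher and 15.3% lower, so these counts are not far from the background. Dpp6, also a partner of Kcnd channels, was 0.999 higher, against a median of 0.50 for all genes. Abcc9, the regulatory subunit of ATP-sensitive channels, had a difference of -1.90. Values after quantile normalization are not given for this list, so directions against 0 hold for the deposited scaling only.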

How the data were processed

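RNA of 9 cortex pools and 9 culture dishes was hybridised to Affymetrix arrays after whole-transcript sense labelling, per the labels' protocols. The authors deposited log2 signals computed by RMA, per the submitters' processing notes. The sources used here do not give its settings, nor whether the 2 systems were normalized together. RMA draws low signals together, so differences of weak genes can be understated.

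Of 23238 probe sets, 14939 had 1 symbol in the platform annotation, 989 several and 7310 none. Symbols were checked by Entrez ID against RefSeq (GRCm38.p6), where 14884 matched and 0 changed. For 131 genes with more than 1 probe set the one with the highest mean was kept, which left 14807 genes. No filter on low signal was used. Some probe sets held equal values in the 3 arrays of a group, in 3 members (Kcnk5, Kcnq1 and Kcnu1) and in 1573 genes.

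Groups came from the labels. The test was limma (version 3.58.1, R 4.3.3), two-sided, by lmFit followed by eBayes, Benjamini-Hochberg adjusted over the 14807 genes, within the 9 arrays of a system or, across systems, in a model of 18 arrays. The test was checked on simulated data. The number of arrays limits the precision. Dishes with the same number deviated together (9 pairs correlated at 0.202 to 0.552, while 18 pairs of different number had -0.358 to 0.119), and cortex pools did not (-0.102 to 0.101 over 9 pairs), so its value is printed for culture results whose call it changed, and for Kcnn2 and Kcnj10. That pairing rests on the data and on the labels' 9 dishes of 3 cultures.

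The genes named were those called in a comparison (where over 20 were called, as in sham culture against control cortex, the 10 largest rises and the 10 largest falls), those with the 5 smallest p-values in it, and the anchors Kcna1, Kcna2, Kcnc1, Kcnd2, Kcnma1, Kcnn2, Kcnj10 and Kcnk2. Some genes outside this rule are also named, chosen after their values were seen: Kcng3, Kcnip2, Kcnj11 and Kcnj14 in the comparisons within a system, Kcnc4, Kcne4, Kcnj9, Kcnj15, Kcnj16, Kcnk4, Kcnmb2, Kcnn1, Kcnn4 and Kcnu1 in culture against cortex, Kcnab1, Kcnmb4 and Kcnq3 for their dish number, and Kcne3 for its promoter. Single genes of the cell marker lists were also named after their values were seen. The members, lists and rule were chosen with earlier results of these data known. Alternatives were quantile normalization, removal of the 30% of genes with the lowest mean, averaging of probe sets, the replicate block and leaving out each array.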

Additional observations from a re-analysis of the deposited data

How the results depend on the processing

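The counts of members called within a system were small and unstable. Lower in sleep-deprived cortex were 2 members as planned, 0 after quantile normalization, 4 when the 30% of genes lowest in mean signal were removed (Kcnh7 and Kcnj2 added), 0 with the replicate block, and 0 to 2 when 1 pool was left out. Of all genes, 2.16% were called higher or lower in this comparison after quantile normalization and 0.945% with the block. Higher in recovered against sleep-deprived cortex was 1, against 0 after quantile normalization, 2 without the lowest 30% (Kcnj4 added), 0 with the replicate block and 0 whichever pool was left out. The shares of all genes called here were 3.16% after quantile normalization and 1.28% with the block. Cortex numbers do not pair the pools, so those block values describe shared numbers only.

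In culture 3 h after stimulation against sham, with the replicate block 0 members were higher, against 1 as planned, and 1 was lower, against 0. With the block 2.42% of all genes were called there. Leaving out any dish gave 0 higher. In the response difference, 0 higher and 0 lower as planned became 1 and 1 after quantile normalization, 1 and 1 without the lowest 30%, 1 and 2 with the replicate block, and 0 to 1 each when 1 array was left out: Kcnf1 was called without sham dish 2 (adjusted p = 0.011) or control pool 3 (0.046), and Kcna2 without 3 h dish 2 (0.017). For the response difference, 2.4% of all genes were called after quantile normalization and 3.47% with the replicate block. In sham culture against control cortex, 30 members were lower after quantile normalization, against 18 as deposited, and with the replicate block 29 were higher and 20 lower. Higher ones numbered 22 after quantile normalization, against 26. In this comparison 70.6% of all genes were called after quantile normalization and 78.1% with the block.

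Averaging all probe sets of a gene changed no count by more than 1.5 times. With the replicate block 0 members were called in either comparison of the 24 h dishes, against 1.01% of all genes for 24 h against 3 h and 0% for 24 h against sham. Alternative values were computed for the genes named by the rule and for every member with an unadjusted p under 0.05 in a comparison. Of these, 1041 kept direction and side of the threshold, 58 lost a call and 14 gained one. The other 11 reversed, and those 11 were in sham culture against control cortex. After quantile normalization the difference turned to 0.21 in Kcne4, -0.35 in Kcna1, -0.20 in Kcnj10, Kcnj16 and Kcnh3, -0.19 in Kcnc4, -0.067 in Kcnd1, -0.10 in Kcng3, -0.16 in Kcnh2 and -0.13 in Kcnq3, and with probe sets averaged to 0.012 in Kcnc1. Leaving out an array lowers the degrees of freedom as well as removing its value. Causes of the changed calls were not tested. With 3 arrays a group, differences of the size seen in most members are within the reach of the spread, so a missed threshold does not show equal levels.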
